A study of Mus musculus with 12 samples.

Results

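Type I interferon-induced genes were followed across 4 sorted populations of splenic CD4 T cells from female MRL/Faslpr mice, which develop lupus and have a mutation in Fas, the gene of a receptor that triggers cell death. A list of 45 genes known to be induced by type I interferon was used, chosen with earlier results of these data known. A probe set, which is a group of short array probes that reads 1 target, was taken as a member where the platform annotation gave it 1 of the listed symbols and no other. This gave 69 probe sets for 43 genes, of 45101 probe sets on the array. Isg15 and Ifi44 had no such probe set and were not analysed here. Of the 43 genes, 26 had 1 probe set and 17 had several, and no member was left out by a filter on low values.

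RNA was measured on 12 Affymetrix mouse arrays, 3 for each population. Every population was sorted as TCRb+ CD4+ B220- cells directly from the spleen. The CD62Llo PSGL1lo, CD62Llo PSGL1hi and CD62Lhi PSGL1hi populations were CD44+ cells, which have met antigen, from mice aged 16 to 24 weeks. CD62L is the lymph node homing receptor L-selectin, and PSGL1 is a selectin ligand encoded by Selplg. The naive population was CD62Lhi CD44lo and came from mice aged 6 to 8 weeks, so that population and age cannot be told apart wherever naive cells are compared. All mice carried the same Fas mutation, and no other strain was analysed here. The titles call the arrays of a population technical replicates, whereas the design text speaks of 3 separate sorts, so the p-values speak only for the spread among these arrays. For CD62Llo PSGL1hi samples the titles and descriptions give different gates, and the titles were followed.

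Type I interferons bind a receptor built from IFNAR1 and IFNAR2. The kinases JAK1 and TYK2 then activate STAT2, which joins IRF9 in a complex that binds a DNA element called the ISRE in the promoters of target genes. Interferon gamma acts through a different receptor, IFNGR1 with IFNGR2, and another DNA element called GAS, and many target genes answer to both interferon types. The products sense or degrade foreign RNA, block viral replication or feed back on the pathway, and a raised interferon signature is a known feature of blood cells in lupus.

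The 2 elements were looked for in promoters because they are the known docking sites of the pathway. The letters searched were GAAA, any 2 bases and GAAA for the ISRE core and TTC, any 3 bases and GAA for GAS, on both strands, from 250 bases before to 50 bases after each RefSeq gene start (GRCm38.p6). Of the 45 listed genes 35 had a promoter in the table. The ISRE core was found in 16 of the 35 (45.7%), against 3.99% of all 27025 genes with a promoter. The GAS letters were found in 10 of 35 (28.6%), against 9.55% of all genes. A match describes the letters and shows no binding. The stretches just before the start of 5 members are printed 5′ to 3′ on the gene's strand, with ISRE core matches in capitals, which read TTTC, 2 bases and TTTC where the match is on the other strand. Ifit1 and Ifit3 are shown because they had the widest falls of the members in CD62Llo PSGL1lo against CD62Llo PSGL1hi cells, Oas3 as another member that was lower there, and Gbp2 and Gbp3 because these related genes differed in how they compared with naive cells.
Ifit1, chr19:34640724-34640888, plus strand: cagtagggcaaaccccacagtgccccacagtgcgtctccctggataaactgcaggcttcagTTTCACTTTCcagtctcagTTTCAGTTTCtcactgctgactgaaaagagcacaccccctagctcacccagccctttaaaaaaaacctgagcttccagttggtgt
Ifit3, chr19:34583364-34583528, plus strand: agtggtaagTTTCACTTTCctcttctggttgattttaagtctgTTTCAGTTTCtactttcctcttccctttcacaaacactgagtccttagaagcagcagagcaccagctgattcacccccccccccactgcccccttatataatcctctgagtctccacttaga
Oas3, chr5:120777660-120777824, minus strand: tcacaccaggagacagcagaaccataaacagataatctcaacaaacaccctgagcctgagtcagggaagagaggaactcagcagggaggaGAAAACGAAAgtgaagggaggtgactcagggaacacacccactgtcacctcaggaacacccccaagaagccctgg
Gbp2, chr3:142620498-142620662, plus strand: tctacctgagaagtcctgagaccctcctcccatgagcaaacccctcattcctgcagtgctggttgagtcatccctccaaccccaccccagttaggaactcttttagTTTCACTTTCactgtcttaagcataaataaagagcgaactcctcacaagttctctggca
Gbp3, chr3:142559879-142560043, plus strand: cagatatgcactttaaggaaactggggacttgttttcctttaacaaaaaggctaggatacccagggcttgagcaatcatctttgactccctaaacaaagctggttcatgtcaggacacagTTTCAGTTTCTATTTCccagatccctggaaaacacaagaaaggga
Ifit1, Ifit3 and Gbp3 each held 2 matches in these windows, those of Gbp3 overlapping, and Gbp2 and Oas3 held 1. For Gbp3, the start among those listed whose window held matches is shown. In the promoter of Cxcl10, whose values ran against those of most members, an ISRE core match began 213 bases before the start. The promoters of Ifit2, Irf7 and Samd9l held no ISRE core match in the window.

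The deposited value of a probe set is a linear ratio to its own median over the 12 arrays. A ratio of 1 is therefore the middle of the 12 arrays, and ratios of different probe sets cannot be ranked against each other. Differences are on the log2 scale, first population minus second, ± the standard error of a limma fit to all 45037 probe sets that are not array controls. A difference was called where its two-sided p, adjusted over all of them by Benjamini-Hochberg, was under 0.05. This fit did not pair arrays by replicate number. The gate genes followed the sort: Selplg was at 0.118, 0.127 and 0.153 in CD62Llo PSGL1lo arrays and between 0.906 and 1.147 in all others, and Cd44 was at 0.0842, 0.0779 and 0.0752 in naive arrays. Since a ratio gives no brightness, the presence of Cd4 or Cd3e transcripts could not be checked. The median ratio over all probe sets lay between 0.967 and 1.022 in every array. CD62Llo PSGL1lo replicate 2 stood low among the members, with a median member ratio of 0.754.

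Among the 4 populations, 36 of 69 member probe sets of 31 genes differed in limma's F test (52.2%), against 23.7% of all probe sets. The mean ratio was highest in naive cells for 47 of 69 probe sets and lowest in CD62Llo PSGL1lo cells for 39 of 69. These positions were not counted over all probe sets, so whether the members differ from the array as a whole in them is not known. The median member ratio was 0.948, 0.754 and 0.879 in the 3 CD62Llo PSGL1lo arrays. It was 1.024, 0.982 and 1.002 in CD62Llo PSGL1hi arrays and 0.980, 0.985 and 0.990 in CD62Lhi PSGL1hi arrays. In naive arrays it was 1.216, 1.200 and 1.178. The naive arrays lay above all others and the CD62Llo PSGL1lo arrays below all others, with no overlap. Because these are sorted bulk samples, a smaller share of cells that express a gene and less RNA per cell cannot be told apart.

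**Figure D1:**
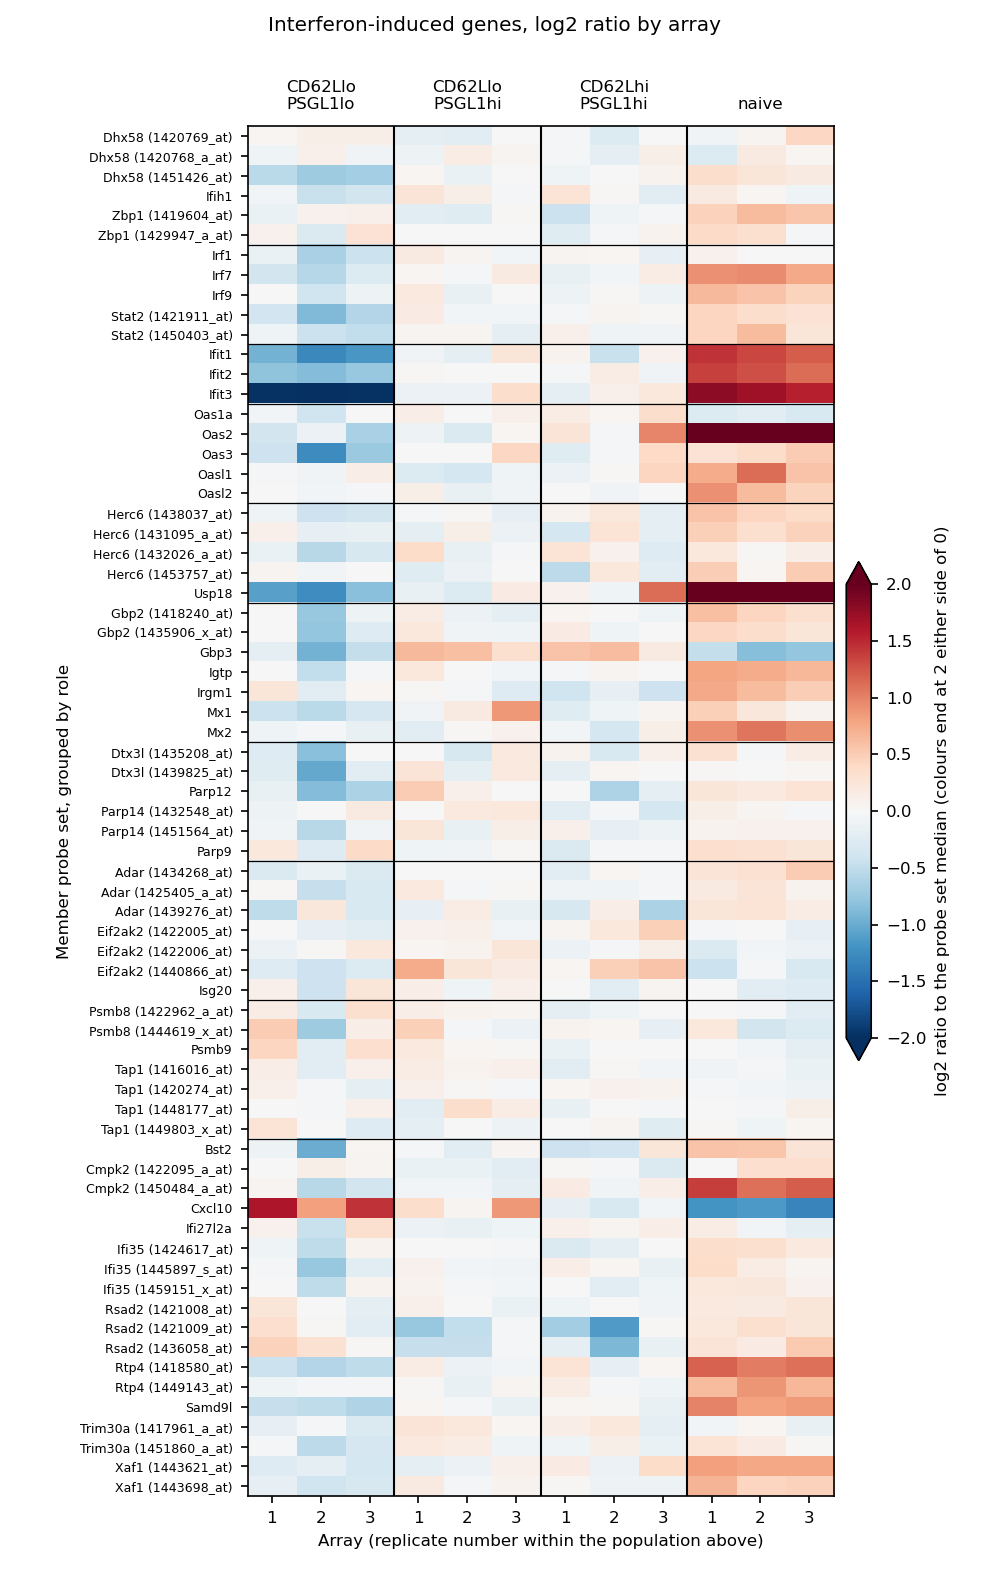
Log2 ratio (colour, ending at 2 either side of 0) of each of the 69 member probe sets (rows, grouped by role) in each of the 12 arrays (columns, with the replicate number below and the population above). The Ifit1, Ifit2 and Ifit3 rows run from low in CD62Llo PSGL1lo arrays to high in naive arrays, Cxcl10 runs the other way, and the Psmb8, Psmb9 and Tap1 rows show little pattern by population.

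The first comparison set CD62Llo PSGL1lo cells against CD62Llo PSGL1hi cells, which differ by gate in PSGL1 alone and come from mice of the same age range. Of 69 member probe sets, 16 were lower and 1 higher in CD62Llo PSGL1lo cells. Over all 45037 probe sets 8.38% were called, 4.97% lower and 3.41% higher. The median member difference was -0.20, against 0.00 over all probe sets. The count of 17 fell to 9 without CD62Llo PSGL1hi replicate 1, where the share over all probe sets was 6.04%. It fell to 11 without CD62Llo PSGL1lo replicate 2 (8.95% of all probe sets), and to 11 when only the 2 populations compared were fitted (6.35%). The calls of Ifit1, Ifit2, Ifit3, Oas3, Stat2, Gbp3, Samd9l and 1 probe set of Dhx58 were kept in every setting tried, and the other 9 were lost in at least 1.

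The IFIT family, whose proteins bind viral RNA and block its translation, was lower in CD62Llo PSGL1lo cells in all 3 of its members. Ifit3 was at 0.255, 0.184 and 0.255 in the CD62Llo PSGL1lo arrays, 0.923, 0.926 and 1.28 in CD62Llo PSGL1hi arrays, 0.882, 1.07 and 1.15 in CD62Lhi PSGL1hi arrays and 3.45, 3.22 and 2.94 in naive arrays. These ratios formed 3 separate levels, with CD62Llo PSGL1lo lowest, the PSGL1hi populations together and naive highest. The difference from CD62Llo PSGL1hi cells was -2.17 ± 0.16, a 4.51-fold lower ratio (adjusted p = 7.85e-07). A near-identical gene, Ifit3b, exists in mouse, and whether this probe set also reads its transcript was not tested.

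Ifit1 was at 0.520, 0.408 and 0.448 in CD62Llo PSGL1lo arrays, 0.948, 0.880 and 1.18 in CD62Llo PSGL1hi arrays, 1.05, 0.733 and 1.07 in CD62Lhi PSGL1hi arrays and 2.73, 2.53 and 2.33 in naive arrays. Ifit2 was at 0.574, 0.551 and 0.593 in CD62Llo PSGL1lo arrays, 1.02, 0.990 and 1.01 in CD62Llo PSGL1hi arrays, 0.976, 1.11 and 0.955 in CD62Lhi PSGL1hi arrays and 2.59, 2.44 and 2.17 in naive arrays. Both genes showed the same 3 levels as Ifit3, with no overlap between CD62Llo PSGL1lo arrays and any other. Against CD62Llo PSGL1hi cells, Ifit1 was lower, at -1.12 ± 0.16 (adjusted p = 0.000262 in limma) and Ifit2 at -0.81 ± 0.10 (adjusted p = 6.30e-05).

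**Figure D2:**
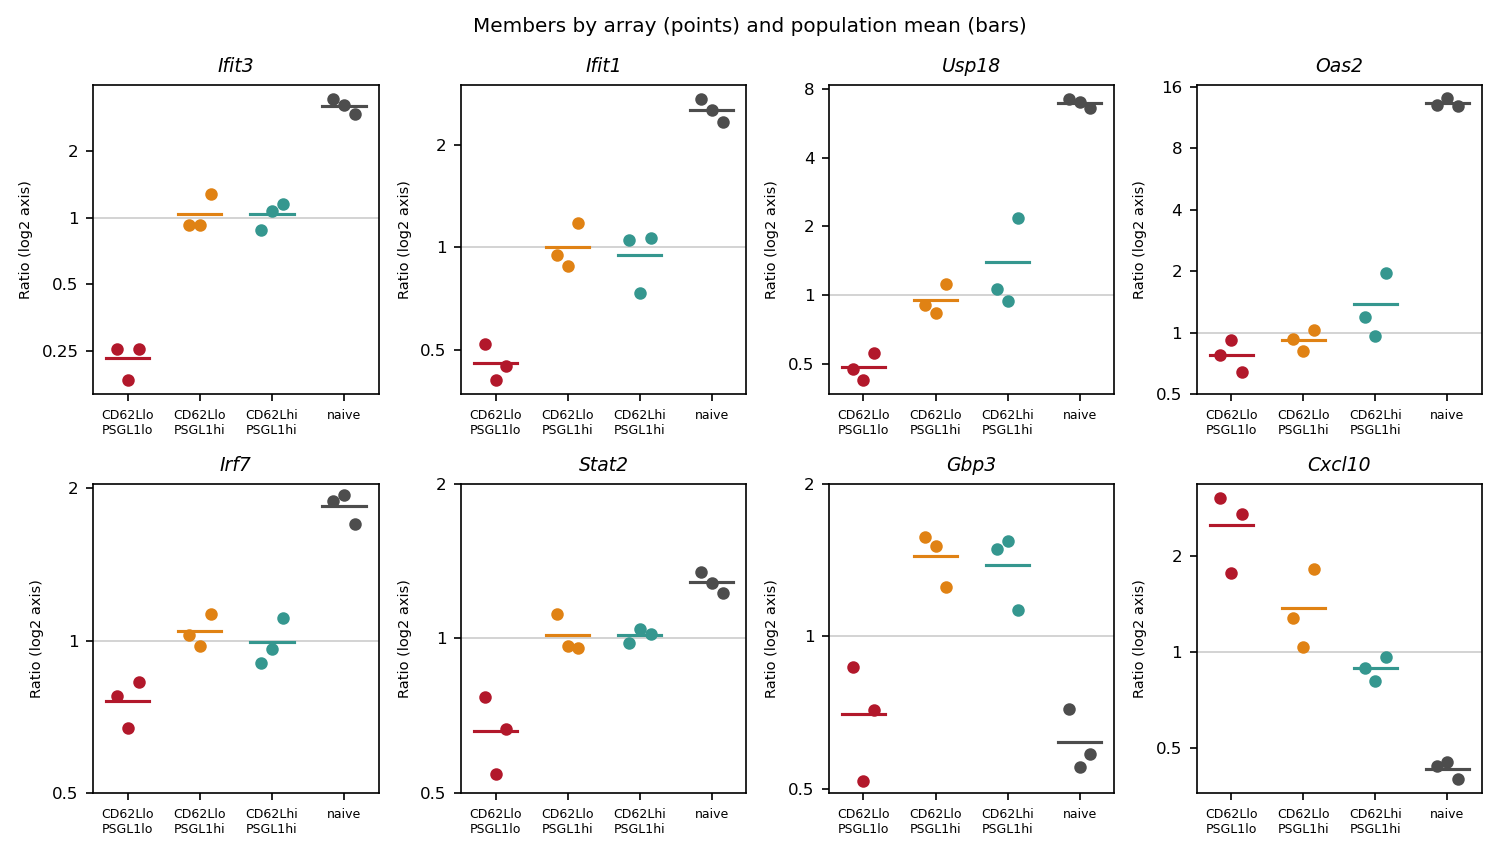
Ratio to the probe set median (vertical axes, log2 spaced) of 8 members in each of the 12 arrays (points) with the mean of each population (horizontal bars, n = 3). Ifit3, Ifit1, Usp18, Irf7 and Stat2 are lowest in CD62Llo PSGL1lo cells and highest in naive cells, Oas2 stands apart in naive cells with ratios from 13.0 to 14.1, Gbp3 is high in both PSGL1hi populations, and Cxcl10 is highest in CD62Llo PSGL1lo cells.

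The transcription factors of the pathway were lower in part. Stat2, whose product binds the ISRE in a complex with IRF9, was at 0.769, 0.545 and 0.667 in CD62Llo PSGL1lo arrays, 1.12, 0.968 and 0.958 in CD62Llo PSGL1hi arrays, 0.980, 1.04 and 1.02 in CD62Lhi PSGL1hi arrays and 1.35, 1.28 and 1.23 in naive arrays. The CD62Llo PSGL1lo arrays lay below all others, and the difference from CD62Llo PSGL1hi cells was -0.63 ± 0.12 (adjusted p = 0.00331 in limma). The second Stat2 probe set was at -0.31 ± 0.13 and did not pass. Irf7, the factor that amplifies interferon responses, was at 0.776, 0.673 and 0.827 in CD62Llo PSGL1lo arrays, 1.02, 0.976 and 1.13 in CD62Llo PSGL1hi arrays, 0.905, 0.961 and 1.11 in CD62Lhi PSGL1hi arrays and 1.89, 1.94 and 1.70 in naive arrays. Irf7 was again in 3 levels, with a difference of -0.46 ± 0.11 from CD62Llo PSGL1hi cells (adjusted p = 0.0180). Irf1, a factor most strongly induced by interferon gamma, was lower, at -0.47 ± 0.13 (adjusted p = 0.0312). Irf9, the DNA-binding partner of STAT2, was at -0.18 ± 0.12 and did not pass (adjusted p = 0.527). The Irf7 call was lost without CD62Llo PSGL1lo replicate 2 and without CD62Llo PSGL1hi replicate 1 or 3, with an adjusted p of up to 0.0897. The Irf1 call was lost without CD62Llo PSGL1lo replicate 2 or 3 and without CD62Llo PSGL1hi replicate 1 or 2, with an adjusted p of up to 0.139.

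Usp18 removes the ubiquitin-like protein ISG15 from its targets and restrains signalling at the type I interferon receptor. Usp18 was at 0.473, 0.424 and 0.559 in CD62Llo PSGL1lo arrays, 0.901, 0.831 and 1.12 in CD62Llo PSGL1hi arrays, 1.06, 0.938 and 2.18 in CD62Lhi PSGL1hi arrays and 7.25, 7.004 and 6.61 in naive arrays. CD62Llo PSGL1lo arrays were lowest without overlap, and CD62Lhi PSGL1hi replicate 3 stood above the other CD44+ arrays. The difference from CD62Llo PSGL1hi cells was -0.97 ± 0.24 (adjusted p = 0.0205 in limma), a call lost after quantile normalization and, among single arrays, without CD62Llo PSGL1lo replicate 2, CD62Llo PSGL1hi replicate 1 or CD62Llo PSGL1hi replicate 3 (highest adjusted p = 0.0991). The other measured gene of the ISG15 system, Herc6, the mouse ligase that attaches ISG15, had 4 probe sets between -0.40 and 0.11, none called.

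In the OAS family, which includes enzymes that make the signal that activates RNase L, 1 of 5 members was called. Oas3 was at 0.750, 0.417 and 0.597 in CD62Llo PSGL1lo arrays, 1.01, 0.990 and 1.33 in CD62Llo PSGL1hi arrays, 0.850, 0.971 and 1.31 in CD62Lhi PSGL1hi arrays and 1.22, 1.28 and 1.42 in naive arrays. The CD62Llo PSGL1lo arrays were below all others, at -0.94 ± 0.20 against CD62Llo PSGL1hi cells (adjusted p = 0.00799 in limma). Oas1a (-0.23), Oas2 (-0.26), Oasl1 (0.25) and Oasl2 (0.01) did not pass.

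Among the interferon-induced GTPases, Gbp3 and Mx1 were lower in CD62Llo PSGL1lo cells. Gbp3, a guanylate-binding protein that acts against intracellular pathogens, was at 0.872, 0.519 and 0.715 in CD62Llo PSGL1lo arrays, 1.57, 1.51 and 1.25 in CD62Llo PSGL1hi arrays, 1.48, 1.54 and 1.13 in CD62Lhi PSGL1hi arrays and 0.719, 0.553 and 0.586 in naive arrays. Both PSGL1hi populations were high, and the CD62Llo PSGL1lo and naive arrays were low and overlapped. The difference from CD62Llo PSGL1hi cells was -1.06 ± 0.18 (adjusted p = 0.00151 in limma). Mx1, an antiviral dynamin-like GTPase, was lower, at -0.77 ± 0.19 (adjusted p = 0.0216). That value of Mx1 leaned on CD62Llo PSGL1hi replicate 3, at 1.83 against 0.956 and 1.13 in the other arrays of its population, and the call was lost without that array, without CD62Llo PSGL1lo replicate 2 and after quantile normalization (highest adjusted p = 0.0815). Gbp2 (-0.23 and -0.36 for its 2 probe sets), Igtp (-0.23), Irgm1 (0.12) and Mx2 (-0.04) did not pass.

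Of the remaining effectors, Samd9l, which restrains viruses and cell growth, was lower, at -0.48 ± 0.10 (adjusted p = 0.00501 in limma). Its ratios of 0.725, 0.702 and 0.659 in CD62Llo PSGL1lo arrays lay below 1.02, 0.980 and 0.904 in CD62Llo PSGL1hi arrays. Rtp4, known as a Golgi chaperone of receptors, was lower, at -0.50 ± 0.12 (adjusted p = 0.0143) on 1 probe set and at -0.02 on the other, and the call was lost without CD62Llo PSGL1hi replicate 1 (adjusted p = 0.0807). Parp12, of the ADP-ribosyltransferase family, was lower, at -0.75 ± 0.19 (adjusted p = 0.0255), with the call lost after quantile normalization (adjusted p = 0.156), and without CD62Llo PSGL1lo replicate 2 or 3 or CD62Llo PSGL1hi replicate 1 or 2. The RNA sensor genes Dhx58, which encodes LGP2, and Ifih1, which encodes MDA5, were at -0.61 ± 0.09 on 1 of 3 Dhx58 probe sets (adjusted p = 0.000639) and -0.40 ± 0.14 for Ifih1 (adjusted p = 0.110). The other 2 Dhx58 probe sets were at 0.22 and -0.05, so the Dhx58 reading depends on the probe set. Eif2ak2, the RNA-activated kinase PKR, was lower on 1 of 3 probe sets (-0.70 ± 0.17), and Xaf1 on 1 of 2 (-0.36 ± 0.10). Both of these calls were lost without CD62Llo PSGL1hi replicate 1, at adjusted p = 0.0895 for Eif2ak2 and 0.183 for Xaf1, and that of Xaf1 without most other arrays too. In all, none of the 17 genes with several probe sets had all of them called in this comparison.

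Cxcl10, which encodes a chemokine that draws CXCR3+ T cells, was the member called higher. It was at 3.06, 1.77 and 2.72 in CD62Llo PSGL1lo arrays, 1.28, 1.04 and 1.82 in CD62Llo PSGL1hi arrays, 0.891, 0.813 and 0.963 in CD62Lhi PSGL1hi arrays and 0.439, 0.453 and 0.399 in naive arrays. The order was the reverse of that of the Ifit genes, with CD62Llo PSGL1lo highest, naive lowest, and 1 CD62Llo PSGL1hi array at 1.82 above the lowest CD62Llo PSGL1lo array at 1.77. The difference from CD62Llo PSGL1hi cells was 0.87 ± 0.20 (adjusted p = 0.0149 in limma). It was not called after quantile normalization (adjusted p = 0.519), nor without CD62Llo PSGL1lo replicate 1 or 3 or CD62Llo PSGL1hi replicate 1 or 2, nor with only the 2 populations fitted, and it was positive in every setting.

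No antigen processing member was called. Psmb8 and Psmb9, subunits of the immunoproteasome, and Tap1, the peptide transporter, had 7 probe sets with differences between -0.13 and 0.10, and 0 of 7 were called in any of the 6 comparisons with all arrays. Psmb9 was at 1.35, 0.862 and 1.26 in CD62Llo PSGL1lo arrays, 1.14, 1.03 and 1.01 in CD62Llo PSGL1hi arrays, 0.917, 0.997 and 1.00 in CD62Lhi PSGL1hi arrays and 0.995, 0.964 and 0.880 in naive arrays, with CD62Llo PSGL1lo replicate 2 the lowest of the 12. Without that array the Psmb9 difference of CD62Llo PSGL1lo from naive cells was 0.47 and was called (adjusted p = 0.00469 in limma), against 0.27 ± 0.14 with it (adjusted p = 0.235). Members with no call in this comparison also included Zbp1, Parp9, Parp14, Dtx3l, Adar, Isg20, Bst2, Cmpk2, Ifi27l2a, Ifi35, Rsad2 and Trim30a, with differences from -0.58 for Dtx3l to 0.57 for Rsad2. With the replicate number as a block and the naive arrays left out, 19 members were called against 10.6% of all probe sets. The 2 added were this Dtx3l probe set, at -0.58 ± 0.16 (adjusted p = 0.0343 in limma), and Ifih1, at -0.40 ± 0.10 (adjusted p = 0.0240).

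**Figure D3:**
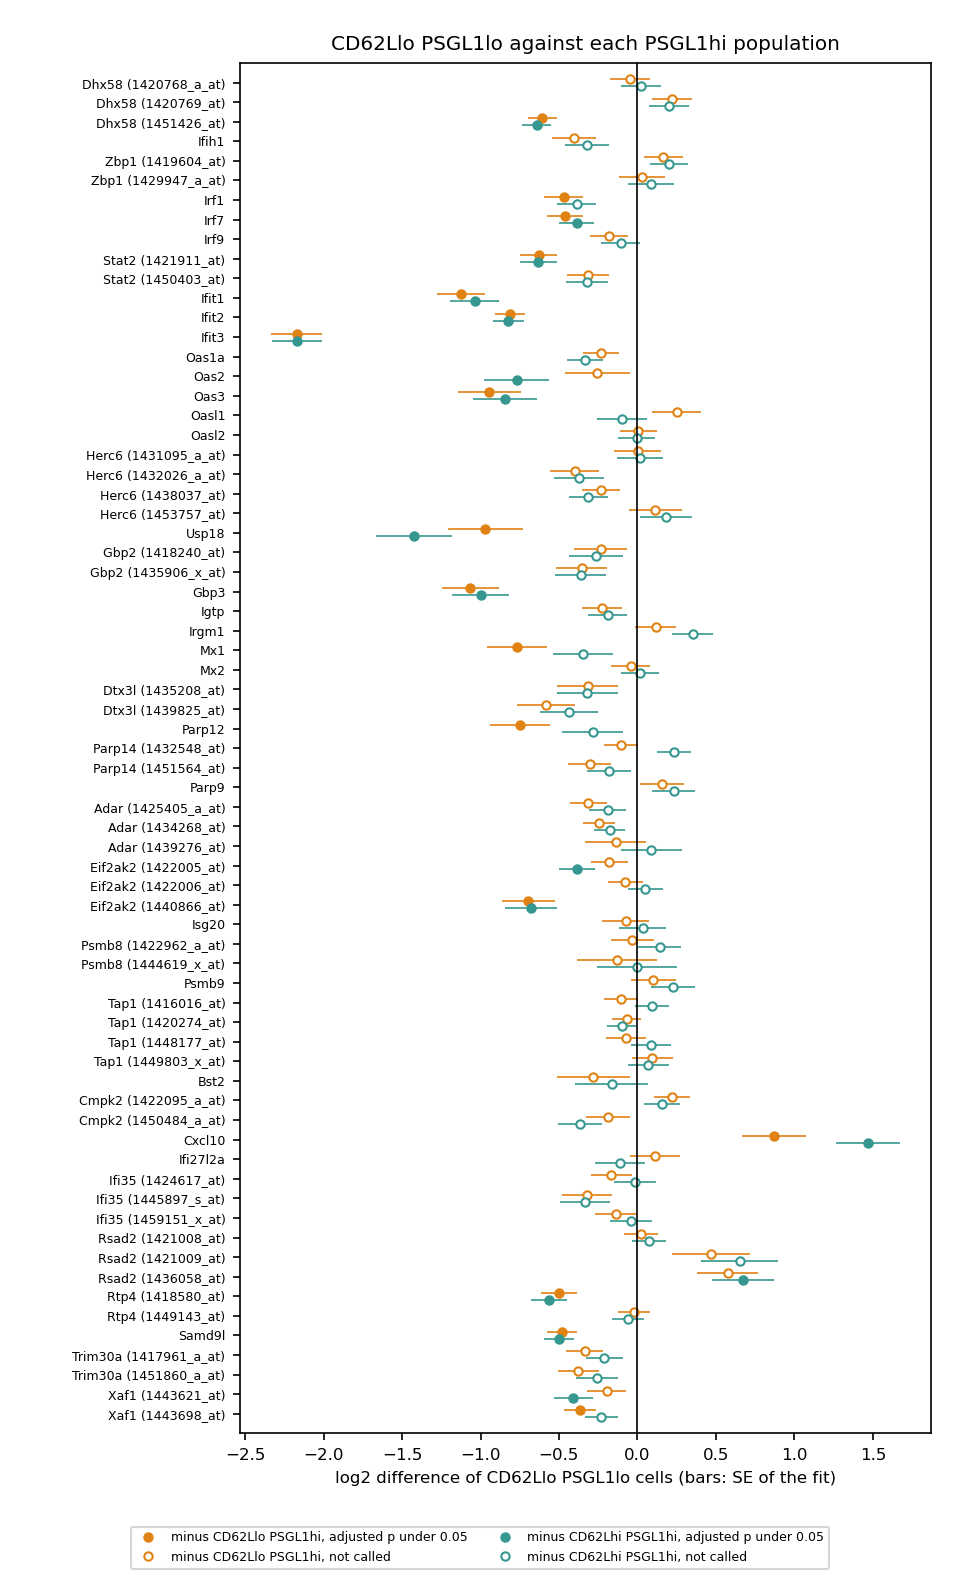
Log2 difference of CD62Llo PSGL1lo cells (horizontal axis, bars are the standard error of the fit) from CD62Llo PSGL1hi cells (orange) and from CD62Lhi PSGL1hi cells (green) for each of the 69 member probe sets, with filled points where the adjusted p is under 0.05. Ifit3 lies at -2.17 in both, and Cxcl10 is the gene farthest to the right at 0.87 and 1.47; both differences use the same CD62Llo PSGL1lo arrays.

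Other cell features moved along this gate, where 4.97% of all probe sets were lower and 3.41% higher. The regulatory T cell markers Foxp3 and Ikzf2 were lower in CD62Llo PSGL1lo cells in 2 of 4 probe sets, and the mean log2 ratio of the list was -0.77 to -0.60 in CD62Llo PSGL1lo arrays and 0.24 to 0.47 in CD62Llo PSGL1hi arrays. Foxp3 itself was at 0.182, 0.108 and 0.131 in CD62Llo PSGL1lo arrays and 2.25, 1.62 and 1.69 in CD62Llo PSGL1hi arrays. Cycling markers were lower in 2 of 5 probe sets (mean log2 ratios of -0.66 to -0.33 in CD62Llo PSGL1lo arrays and -0.20 to 0.05 in CD62Llo PSGL1hi arrays). Among B cell markers 2 of 8 probe sets were lower, Ms4a1 at -1.51 and Cd79b at -1.03, and the macrophage and monocyte list had 1 of 9 lower, Cd68 at -1.79. The plasmacytoid dendritic cell list, of cells known to make type I interferon, had 2 of 20 higher and 1 lower, with mean log2 ratios of 0.04 to 0.05 in CD62Llo PSGL1lo arrays and -0.04 to 0.03 in CD62Llo PSGL1hi arrays, and the dendritic cell list 1 of 10 higher and 1 lower. Plasma cell (0 of 10), neutrophil (0 of 5) and CD8 T and NK cell (0 of 8) markers were not called. Their part in the interferon result was not tested. The neutrophil genes were at ratios from 0.556 to 1.49 in CD62Llo PSGL1lo arrays and from 0.616 to 1.42 in CD62Llo PSGL1hi arrays.

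The second comparison set CD62Llo PSGL1hi cells against CD62Lhi PSGL1hi cells and so followed CD62L at high PSGL1. No member was called, 0 of 69 in limma, against 1.23% of all probe sets. At an unadjusted p under 0.05 there were 6 members, 4 higher and 2 lower, against 9.35% of all probe sets. The lowest adjusted p was 0.243, for Parp14. Ifit3 differed by 0.00 ± 0.16, Ifit2 by -0.01 ± 0.10, Irf7 by 0.08 ± 0.11 and Usp18 by -0.46 ± 0.24. With the replicate number as a block and the naive arrays left out, 1 member was called, Cxcl10 at 0.60 ± 0.14 (adjusted p = 0.0490 in limma). In the fit reported Cxcl10 was at 0.60 ± 0.20 (adjusted p = 0.288). Cycling markers were lower in 4 of 5 probe sets and plasma cell markers in 2 of 10 in CD62Llo PSGL1hi cells. Of all probe sets 0.839% were lower, and the part of these markers was not tested.

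Against CD62Lhi PSGL1hi cells, CD62Llo PSGL1lo cells had 15 member probe sets lower and 2 higher of 69, where 11.6% of all probe sets were called, 6.27% lower and 5.37% higher. This comparison shares the CD62Llo PSGL1lo arrays with the first, so its values stand beside the first and are no separate evidence. Ifit3 differed by -2.17 ± 0.16, Usp18 by -1.42 ± 0.24, Ifit1 by -1.04 ± 0.16, Gbp3 by -0.998 ± 0.18, Ifit2 by -0.82 ± 0.10 and Stat2 by -0.63 ± 0.12, all with an adjusted p of 0.00233 or less in limma. Oas2 was called here (-0.77 ± 0.21, adjusted p = 0.0260), with CD62Lhi PSGL1hi replicate 3 at 1.97 against 1.19 and 0.970 in the other arrays of its population, and its call was lost without that array, without CD62Llo PSGL1lo replicate 1 or 3 and after quantile normalization (highest adjusted p over all settings 0.132). Cxcl10 was higher by 1.47 ± 0.20, with no overlap (adjusted p = 0.000193). Irf7 was lower, at -0.39 ± 0.11 (adjusted p = 0.0378), a call lost in several settings, without CD62Lhi PSGL1hi replicate 3 among them (adjusted p = 0.144). The second rise was 1 of 3 probe sets of Rsad2, the gene of the antiviral enzyme viperin, at 0.67 ± 0.20 (adjusted p = 0.0388), whereas the other 2 probe sets were at 0.08 and 0.65 and did not pass. Its call was lost after quantile normalization (adjusted p = 0.213), without CD62Llo PSGL1lo replicate 1 or 2, without CD62Lhi PSGL1hi replicate 2 and without naive replicate 1 or 2. Mx1 (-0.35), Irf1 (-0.39), Irf9 (-0.11), Oasl2 (-0.01), Gbp2 (-0.26) and Psmb9 (0.23) did not pass. With the replicate number as a block and the naive arrays left out, Irf1 was called at -0.39 ± 0.12 (adjusted p = 0.0399 in limma) and Oas1a at -0.33 ± 0.10 (adjusted p = 0.0493). The call of 1 Eif2ak2 probe set was then lost, at -0.38 ± 0.13 (adjusted p = 0.0629). In all, 11 members were called after quantile normalization (9.94% of all probe sets) and 11 when only the 2 populations were fitted (7.27%). Foxp3 (-3.95) and 4 of 5 cycling probe sets were also lower in CD62Llo PSGL1lo cells. Plasma cell markers had mean log2 ratios of -0.15 to 0.15 in CD62Llo PSGL1lo arrays and 0.37 to 0.59 in CD62Lhi PSGL1hi arrays. Macrophage and monocyte markers were at -0.43 to -0.03 in CD62Llo PSGL1lo arrays and -0.01 to 0.29 in CD62Lhi PSGL1hi arrays. Plasmacytoid dendritic cell markers were at 0.04 to 0.05 in CD62Llo PSGL1lo arrays and -0.11 to -0.05 in CD62Lhi PSGL1hi arrays. None of these lists overlapped between the populations, though the gap of the macrophage and monocyte list was narrow. The CD4 T cell, CD8 T and NK cell, B cell, dendritic cell, neutrophil and erythroid lists did overlap. The part of any list in these differences was not tested.

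The 3 comparisons with naive cells share the naive arrays, and in each of them population and age change together. Most called members were lower in the CD44+ cells. In CD62Llo PSGL1lo cells 36 member probe sets were lower and 1 higher than in naive cells, where 20.1% of all probe sets were called, 10.6% lower and 9.53% higher. In CD62Llo PSGL1hi cells 26 were lower and 3 higher, where 17.3% of all were called, 8.16% lower and 9.1% higher. In CD62Lhi PSGL1hi cells 27 were lower and 4 higher, where 17.3% of all were called, 8.66% lower and 8.6% higher. The median member difference from naive cells was -0.46 in CD62Llo PSGL1lo cells, -0.27 in CD62Llo PSGL1hi cells and -0.34 in CD62Lhi PSGL1hi cells, against -0.05 over all probe sets in each.

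Naive arrays also stood apart in transcripts of other cell types. The shares over all probe sets for these comparisons are those of the paragraph above. The neutrophil granule genes Camp, Ltf, Ngp, S100a8 and S100a9 were lower in all 3 CD44+ populations, 5 of 5 in each. Their ratios were 0.556 to 1.49 in CD62Llo PSGL1lo arrays, 0.616 to 1.42 in CD62Llo PSGL1hi arrays and 0.595 to 1.13 in CD62Lhi PSGL1hi arrays, against 7.26 to 19.4 in naive arrays. Ngp, for example, was at 1.13, 0.888 and 0.707 in CD62Llo PSGL1lo arrays, 1.00, 0.997 and 0.616 in CD62Llo PSGL1hi arrays, 0.765, 0.595 and 1.02 in CD62Lhi PSGL1hi arrays and 18.9, 17.9 and 19.4 in naive arrays. The part of these transcripts in the interferon differences from naive cells was not tested, and this applies to every value against naive cells given below. Cd8b1 and 2 of 5 Cd8a probe sets were lower in the CD44+ cells, at -0.95 to -0.48 on the log2 scale. The regulatory T cell markers were higher than in naive cells in 3 of 4 probe sets in CD62Llo PSGL1lo cells, with 1 lower, and in 4 of 4 in each PSGL1hi population. Plasma cell markers had mean log2 ratios of -0.15 to 0.15 in CD62Llo PSGL1lo, 0.11 to 0.18 in CD62Llo PSGL1hi and 0.37 to 0.59 in CD62Lhi PSGL1hi arrays, against -0.57 to -0.47 in naive arrays. Plasmacytoid dendritic cell markers were at 0.04 to 0.05 in CD62Llo PSGL1lo, -0.04 to 0.03 in CD62Llo PSGL1hi and -0.11 to -0.05 in CD62Lhi PSGL1hi arrays, against 0.13 to 0.18 in naive arrays. Neither list overlapped between naive and CD44+ arrays, and their part in the interferon differences was not tested either. Nor did the CD8 T and NK cell list, at 0.27 to 0.35 in naive arrays and -0.14 to 0.14 in CD44+ arrays. The CD4 T cell list was at -0.42 to -0.23 in naive, -0.02 to 0.14 in CD62Llo PSGL1lo and 0.07 to 0.17 in CD62Llo PSGL1hi arrays. This list, the dendritic cell list and the erythroid list overlapped between naive and CD62Lhi PSGL1hi arrays alone. The cycling list overlapped with CD62Llo PSGL1hi arrays alone. The macrophage and monocyte list overlapped with both CD62Llo populations, and the B cell list with all 3. The part of these lists was not tested.

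Among members lower than in naive cells, the differences of Oas2, Usp18 and Ifit3 were the largest in each of the 3 CD44+ populations. Oas2 was at 0.778, 0.923 and 0.640 in CD62Llo PSGL1lo arrays, 0.933, 0.816 and 1.03 in CD62Llo PSGL1hi arrays and 1.19, 0.970 and 1.97 in CD62Lhi PSGL1hi arrays, against 13.0, 14.1 and 13.0 in naive arrays. The naive arrays were far above all others, and the CD62Llo PSGL1hi arrays overlapped with both other CD44+ populations, which did not overlap with each other. Oas2 was lower, at -4.11 ± 0.21, -3.85 ± 0.21 and -3.34 ± 0.21 in CD62Llo PSGL1lo, CD62Llo PSGL1hi and CD62Lhi PSGL1hi cells (adjusted p = 3.76e-09, 9.35e-09 and 5.13e-08 in limma). In the same order Usp18 was lower, at -3.85 ± 0.24, -2.88 ± 0.24 and -2.43 ± 0.24, and Ifit3 at -3.81 ± 0.16, -1.63 ± 0.16 and -1.63 ± 0.16. For Ifit3 this is a 14.0-fold lower ratio in CD62Llo PSGL1lo cells and a 3.10-fold lower ratio in CD62Llo PSGL1hi cells. Ifit1 was lower, at -2.47 ± 0.16, -1.34 ± 0.16 and -1.43 ± 0.16, and Ifit2 at -2.06 ± 0.10, -1.25 ± 0.10 and -1.24 ± 0.10. The distance between the first and second of these values is the first comparison itself, which was called for Ifit1, Ifit2, Ifit3 and Usp18 and not for Oas2.

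**Figure D4:**
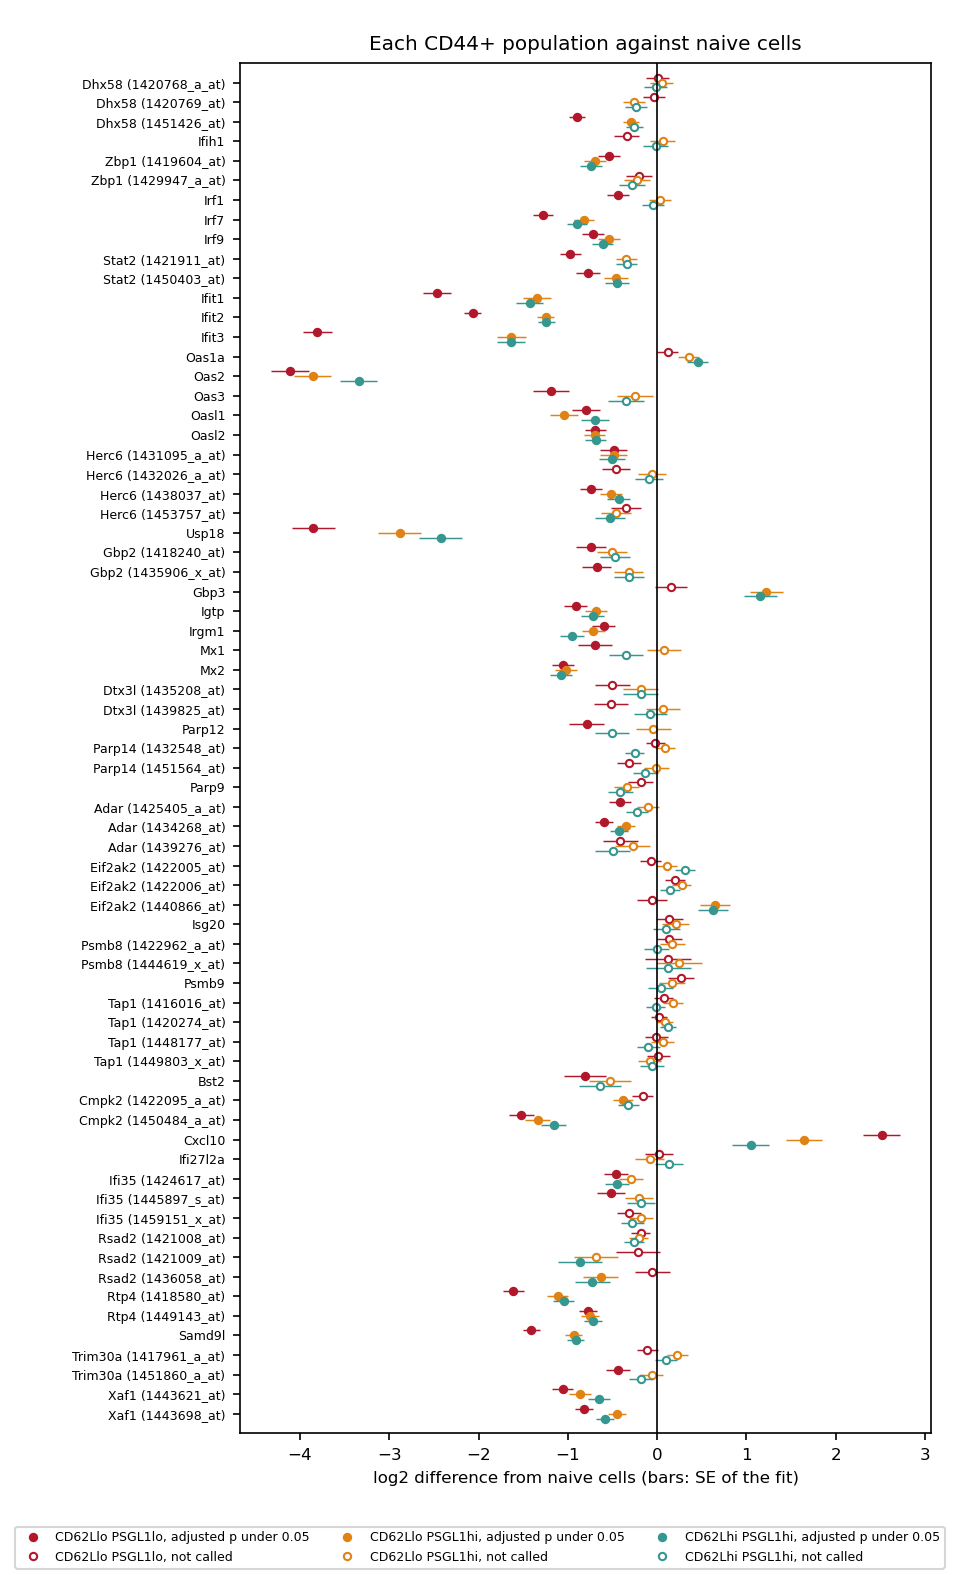
Log2 difference from naive cells (horizontal axis, bars are the standard error of the fit) of CD62Llo PSGL1lo (red), CD62Llo PSGL1hi (orange) and CD62Lhi PSGL1hi cells (green) for each of the 69 member probe sets, with filled points where the adjusted p is under 0.05. Oas2 lies between -4.11 and -3.34, and Cxcl10 is to the right of 0 in all 3; the naive arrays are shared and came from younger mice.

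The transcription factor genes Irf7 and Irf9 were lower than in naive cells in all 3 CD44+ populations. Irf7 was lower, at -1.28 ± 0.11 in CD62Llo PSGL1lo cells, -0.82 ± 0.11 in CD62Llo PSGL1hi cells and -0.89 ± 0.11 in CD62Lhi PSGL1hi cells. Irf9 was at 0.999, 0.755 and 0.934 in CD62Llo PSGL1lo arrays, 1.14, 0.898 and 1.00 in CD62Llo PSGL1hi arrays and 0.932, 1.01 and 0.935 in CD62Lhi PSGL1hi arrays, against 1.56, 1.48 and 1.36 in naive arrays. Naive arrays were highest without overlap, and Irf9 was lower, at -0.72 ± 0.12, -0.54 ± 0.12 and -0.61 ± 0.12 in that order. Stat2 was lower, at -0.97 ± 0.12 in CD62Llo PSGL1lo cells and at -0.34 ± 0.12 and -0.34 ± 0.12, not called, in the PSGL1hi populations. The second Stat2 probe set was called in all 3 populations, at -0.77, -0.46 and -0.45. Irf1 was lower in CD62Llo PSGL1lo cells (-0.44 ± 0.13), a call lost without CD62Llo PSGL1lo replicate 2 or 3 or any 1 of the naive arrays (adjusted p up to 0.0885), and was at 0.03 and -0.05 in the others.

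Further members were lower in all 3 populations, and none of those in this paragraph was called between CD62Llo PSGL1lo and CD62Llo PSGL1hi cells. Mx2, a GTPase related to Mx1, was at 0.946, 0.985 and 0.901 in CD62Llo PSGL1lo arrays, 0.857, 1.01 and 1.06 in CD62Llo PSGL1hi arrays and 0.964, 0.780 and 1.08 in CD62Lhi PSGL1hi arrays, against 1.88, 2.11 and 1.92 in naive arrays. Its differences from naive cells were -1.06, -1.02 and -1.08 in that order. Those of Oasl2 were -0.69, -0.70 and -0.69, and those of Oasl1 were -0.80, -1.05 and -0.70. Oasl1 and Oasl2 are OAS-like proteins, of which Oasl1 is known in mouse to hold back translation of Irf7. The immunity-related GTPase genes Igtp (-0.91, -0.69 and -0.72) and Irgm1 (-0.60, -0.71 and -0.95) were also lower in all 3. So was the nucleic acid sensor gene Zbp1 on the probe set that stands for it (-0.54, -0.70 and -0.74), while its second probe set was not called. After quantile normalization the Zbp1 call in CD62Llo PSGL1lo cells (adjusted p = 0.0818) and the Oasl1 call in CD62Lhi PSGL1hi cells (adjusted p = 0.101) were lost.

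Samd9l was lower than in naive cells, at -1.41 ± 0.10, -0.93 ± 0.10 and -0.91 ± 0.10 in CD62Llo PSGL1lo, CD62Llo PSGL1hi and CD62Lhi PSGL1hi cells. Rtp4 was lower, at -1.61, -1.11 and -1.05 on 1 probe set and -0.77, -0.75 and -0.71 on the other. Xaf1, a gene linked to cell death, was lower on both of its probe sets in all 3 (-1.06, -0.86 and -0.65 on the first). All of these had an adjusted p of 0.00672 or less in limma. Adar, the RNA-editing enzyme, was lower in all 3 on 1 of its 3 probe sets (-0.60, -0.35 and -0.42). Cmpk2, a mitochondrial nucleotide kinase, was lower, at -1.52 ± 0.14, -1.34 ± 0.14 and -1.16 ± 0.14 on 1 probe set, whereas the other was at -0.16, -0.38 and -0.32 and passed in CD62Llo PSGL1hi cells only. Herc6 was lower on 2 of 4 probe sets in all 3 populations (-0.75, -0.51 and -0.43 on the probe set that stands for it). The calls of Herc6, Adar and the second Cmpk2 probe set in the PSGL1hi populations were lost in at least 1 setting, except that of Adar in CD62Lhi PSGL1hi cells and that of the first Herc6 probe set in CD62Llo PSGL1hi cells. The called probe sets of the 17 genes with several did not move in opposite directions in any comparison.

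Rsad2 and Ifi35 gave mixed readings. Rsad2 was at -0.18, -0.21 and -0.26 on the probe set that stands for it, never called, whereas another was lower, at -0.63 ± 0.20 in CD62Llo PSGL1hi cells and -0.73 ± 0.20 in CD62Lhi PSGL1hi cells. Both of those calls were lost after quantile normalization, at adjusted p = 0.118 and 0.161 in limma. A further Rsad2 probe set was lower in CD62Lhi PSGL1hi cells (-0.86 ± 0.25), and none was called in CD62Llo PSGL1lo cells. Ifi35, whose product binds the factor NMI, was lower in CD62Llo PSGL1lo (-0.46 ± 0.13) and CD62Lhi PSGL1hi cells (-0.45 ± 0.13), and both calls were lost without naive replicate 1 (adjusted p = 0.0831 and 0.106). The Dhx58 probe set that moved in the first comparison was lower, at -0.90 ± 0.09, -0.29 ± 0.09 and, not called, -0.26 ± 0.09.

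Among the members called against naive cells in CD62Llo PSGL1lo cells and not in the PSGL1hi populations were Gbp2 (-0.74 ± 0.17, -0.50 ± 0.17 and -0.47 ± 0.17 in the same order), Oas3 (-1.19 ± 0.20, -0.25 ± 0.20 and -0.35 ± 0.20), Mx1 (-0.69 ± 0.19, 0.07 ± 0.19 and -0.35 ± 0.19) and Parp12 (-0.79 ± 0.19, -0.04 ± 0.19 and -0.51 ± 0.19), along with Bst2, which encodes the virion-retaining protein tetherin (-0.81 ± 0.23, -0.53 ± 0.23 and -0.64 ± 0.23). Whether the populations differed from each other is the first comparison, which was called for Oas3, Mx1 and Parp12 and not for Gbp2 or Bst2. The calls of Mx1, Parp12 and Bst2 against naive cells were lost after quantile normalization (adjusted p = 0.206, 0.1504 and 0.102).

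Members called higher than in naive cells were few. Cxcl10 was higher by 2.51 ± 0.20, 1.64 ± 0.20 and 1.05 ± 0.20 in CD62Llo PSGL1lo, CD62Llo PSGL1hi and CD62Lhi PSGL1hi cells (adjusted p = 4.81e-07, 4.62e-05 and 0.00223 in limma), with no overlap with naive arrays. After quantile normalization the last of these was not called (adjusted p = 0.296). Gbp3 was higher in the PSGL1hi populations (1.22 ± 0.18 and 1.16 ± 0.18) and at 0.16 ± 0.18 in CD62Llo PSGL1lo cells. Gbp2 and Gbp3, whose promoters both hold the ISRE core letters printed above, thus differed in sign against naive cells in the PSGL1hi populations, though the Gbp2 values were not called there. Oas1a was higher in CD62Lhi PSGL1hi cells (0.45 ± 0.12, adjusted p = 0.0134), and the call was lost without CD62Lhi PSGL1hi replicate 3 or naive replicate 3 (adjusted p up to 0.0599). A single Eif2ak2 probe set was higher in CD62Llo PSGL1hi (0.64) and CD62Lhi PSGL1hi cells (0.63), and the other 2 were not called. Those Eif2ak2 calls were lost without naive replicate 1 or 3, among others (adjusted p up to 0.0796 and 0.0831). Ifih1, Isg20, Parp9, Parp14, Dtx3l, Ifi27l2a, Psmb8, Psmb9 and Tap1 were called in no comparison with naive cells, with Ifi27l2a at 0.02, -0.09 and 0.14.

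Genes that act upstream of the members were read from the same arrays. Of the ligands, Ifnb1, Ifna1, Ifna2 and Ifna4 were called in no comparison. Ifng, which encodes interferon gamma, was at 0.730, 0.528 and 0.730 in CD62Llo PSGL1lo arrays, 2.82, 2.48 and 2.12 in CD62Llo PSGL1hi arrays, 2.21, 1.90 and 1.27 in CD62Lhi PSGL1hi arrays and 0.0144, 0.0123 and 0.0128 in naive arrays. It was thus highest in the PSGL1hi populations and lowest by far in naive cells. Any relation of Ifng to the member values was not tested. The Ifng differences from naive cells were 5.64, 7.55 and 7.06 in CD62Llo PSGL1lo, CD62Llo PSGL1hi and CD62Lhi PSGL1hi cells.

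The receptor genes were lower in CD62Llo PSGL1lo cells than in CD62Llo PSGL1hi cells in 3 of 8 probe sets and higher in none. Over all probe sets 4.97% were lower and 3.41% higher. Ifngr1, the ligand-binding chain for interferon gamma, was at 0.367, 0.300 and 0.317 in CD62Llo PSGL1lo arrays, 1.36, 1.00 and 1.01 in CD62Llo PSGL1hi arrays, 1.25, 1.10 and 1.07 in CD62Lhi PSGL1hi arrays and 0.997, 0.867 and 0.854 in naive arrays. All 3 CD62Llo PSGL1lo arrays were below a ratio of 0.4 and all others above 0.8, and the difference from CD62Llo PSGL1hi cells was -1.77 ± 0.13 (adjusted p = 7.77e-07 in limma). Ifnar1, a chain of the type I receptor, was at 0.657, 0.632 and 0.596 in CD62Llo PSGL1lo arrays, 1.01, 0.870 and 0.961 in CD62Llo PSGL1hi arrays, 1.20, 0.985 and 1.14 in CD62Lhi PSGL1hi arrays and 1.41, 1.21 and 1.32 in naive arrays. Ifnar1 was lower in CD62Llo PSGL1lo cells without overlap, at -0.59 ± 0.10 against CD62Llo PSGL1hi cells and -0.81 ± 0.10 against CD62Lhi PSGL1hi cells. Its second probe set was at -0.45 and -0.17 and did not pass. Ifnar2 read differently by probe set: 1 was lower, at -0.47, and the others were at -0.24 and 0.12. Ifngr2 was lower in all 3 CD44+ populations than in naive cells, at -0.86, -1.19 and -1.15.

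**Figure D5:**
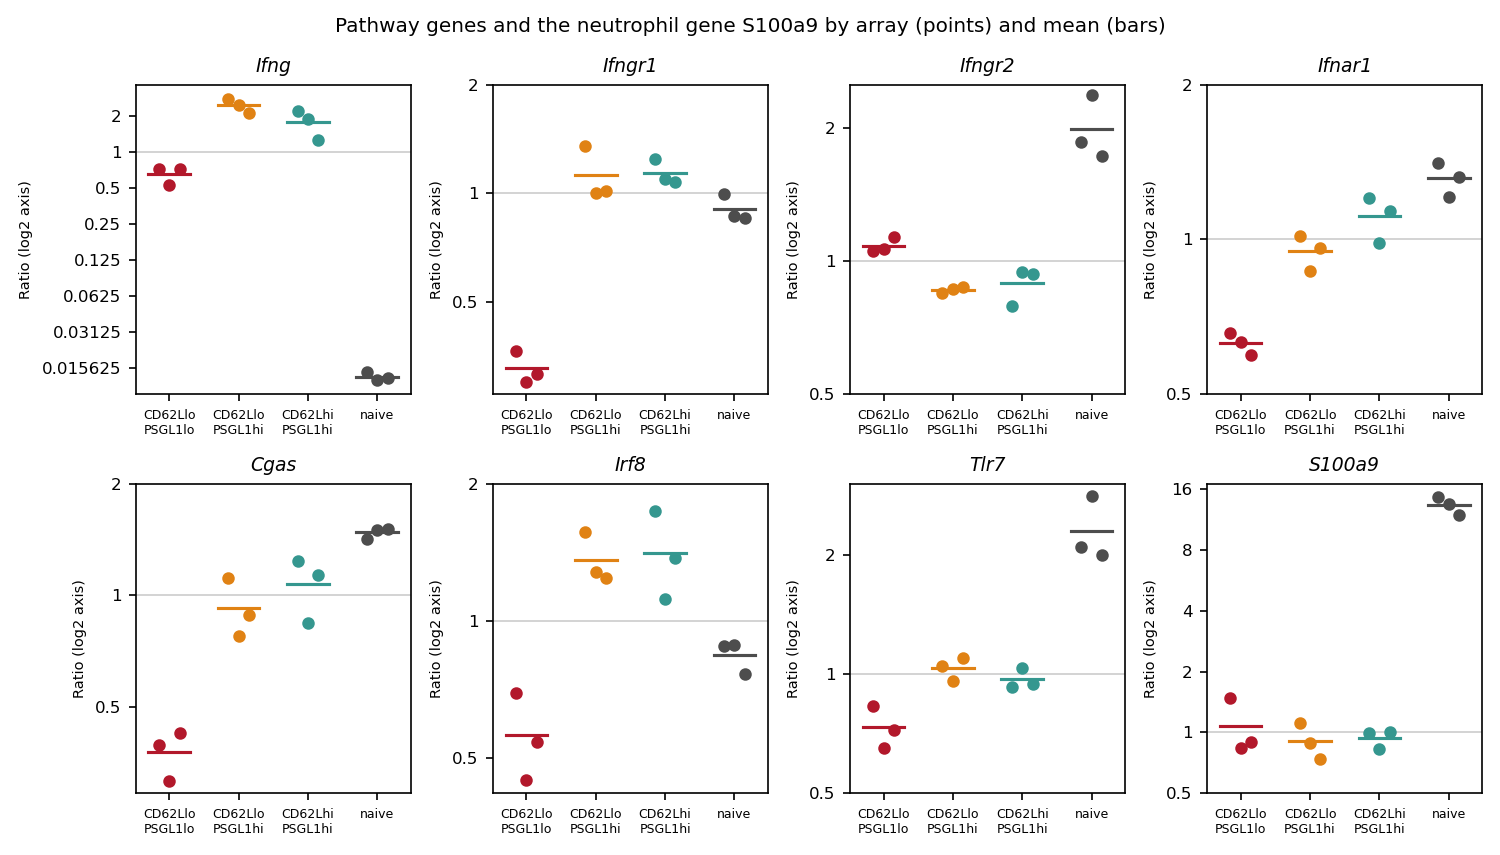
Ratio to the probe set median (vertical axes, log2 spaced) of 7 pathway genes and the neutrophil gene S100a9 in each of the 12 arrays (points) with the mean of each population (horizontal bars, n = 3). Ifngr1, Ifnar1, Cgas and Irf8 are lowest in CD62Llo PSGL1lo cells, Ifng is near 0.013 in naive arrays, and S100a9 is from 11.96 to 14.7 in naive arrays.

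The kinase and brake genes moved in both directions. Tyk2, the kinase bound to IFNAR1, was lower in CD62Llo PSGL1lo cells than in CD62Llo PSGL1hi cells (-0.48 ± 0.10), as was 1 probe set of Jak1 (-1.57 ± 0.43), in which the CD62Llo PSGL1lo arrays ranged from 0.364 to 0.827. Of the 11 probe sets of Jak1, Jak2, Tyk2 and Stat3, 2 were lower and 0 higher there, against 4.97% and 3.41% of all probe sets. Jak2 was higher than in naive cells by 0.92, 0.63 and 0.69 in the 3 CD44+ populations. Of the same 11 probe sets 4, 6 and 3 were higher than in naive cells in that order and 0 lower. Over all probe sets 9.53%, 9.1% and 8.6% were higher. Ptpn6, which encodes the phosphatase SHP-1, was higher in the PSGL1lo than in the PSGL1hi cells of the CD62Llo gate on 2 probe sets (0.76 ± 0.11 and 0.36 ± 0.10). Ptpn11, which encodes SHP-2, was higher on 2 probe sets (0.99 and 0.84). Irf2, a repressor that competes with IRF1, was lower, at -0.57 ± 0.14. Socs1, an inhibitor of the JAK kinases, was higher in CD62Llo PSGL1lo than in CD62Lhi PSGL1hi cells (0.74 ± 0.16) and at 0.38 ± 0.16, not called, against CD62Llo PSGL1hi cells. In all, 4 of 18 probe sets of brake genes were higher and 1 lower in the first comparison. The shares over all probe sets there were 3.41% higher and 4.97% lower.

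Genes of nucleic acid sensing outside the member list were lower in CD62Llo PSGL1lo cells than in CD62Llo PSGL1hi cells in 7 of 24 probe sets. None was higher, where 4.97% of all probe sets were lower and 3.41% higher. Cgas, the sensor of DNA in the cytosol, was at 0.394, 0.316 and 0.426 in CD62Llo PSGL1lo arrays, 1.11, 0.774 and 0.886 in CD62Llo PSGL1hi arrays, 1.24, 0.840 and 1.13 in CD62Lhi PSGL1hi arrays and 1.42, 1.497 and 1.51 in naive arrays. The CD62Llo PSGL1lo arrays were lowest without overlap, and both Cgas probe sets were called, at -1.28 ± 0.16 and -0.54 ± 0.13. Irf8, a factor of myeloid and B cells that is also active in T cells, was lower, at -1.29 ± 0.18 and -1.12 ± 0.14. Ddx58, which encodes the RNA sensor RIG-I, was lower on 2 probe sets (-0.58 and -0.88), and Tlr7, the sensor of single-stranded RNA, on 1 (-0.50 ± 0.13). Sting1, the adaptor that acts after cGAS, was higher in CD62Llo PSGL1lo than in CD62Lhi PSGL1hi cells by 0.53 ± 0.13 and at 0.39 ± 0.13, not called, against CD62Llo PSGL1hi cells. The B cell marker Ms4a1 and Cd79b values given above moved the same way as Irf8, and their part was not tested.

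A further 40 genes that are also induced by interferon, with 77 probe sets, were read beside the members. They too were chosen with earlier results of these data known, so their shares are no separate evidence. Against CD62Llo PSGL1hi cells, CD62Llo PSGL1lo cells had 14 lower (18.2%, against 4.97% of all probe sets) and 2 higher (2.6%, against 3.41%). Against naive cells they had 27 lower (35.1%, against 10.6%) and 7 higher (9.09%, against 9.53%). CD62Llo PSGL1hi cells had 13 lower than in naive cells (16.9%, against 8.16%) and 9 higher (11.7%, against 9.1%). CD62Lhi PSGL1hi cells had 22 lower (28.6%, against 8.66%) and 10 higher (13.0%, against 8.6%). The shares of higher probe sets in CD62Llo PSGL1lo and CD62Llo PSGL1hi cells were near those over all probe sets. Between CD62Llo PSGL1hi and CD62Lhi PSGL1hi cells 1 was called (1.30%, against 1.23%), Cd274, the gene of the inhibitory ligand PD-L1, which was higher by 0.46 ± 0.09.

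Ifitm1 and Gbp7 had the pattern of Gbp3, high in the PSGL1hi populations and low in both others. Ifitm1, which encodes a membrane protein that hinders viral entry, was at 0.239, 0.225 and 0.260 in CD62Llo PSGL1lo arrays, 5.97, 5.12 and 11.1 in CD62Llo PSGL1hi arrays, 2.80, 1.74 and 5.96 in CD62Lhi PSGL1hi arrays and 0.227, 0.206 and 0.216 in naive arrays. Its CD62Llo PSGL1lo and naive ratios overlapped and differed by 0.16 ± 0.35. Ifitm2 and Ifitm3 were lower in CD62Llo PSGL1lo cells than in CD62Llo PSGL1hi cells, at -1.99 and -2.05. Gbp7 was at 0.565, 0.507 and 0.432 in CD62Llo PSGL1lo arrays, 1.92, 1.68 and 1.54 in CD62Llo PSGL1hi arrays, 1.43, 1.99 and 1.18 in CD62Lhi PSGL1hi arrays and 0.733, 0.824 and 0.644 in naive arrays, and was lower, at -1.77 ± 0.17 in the first comparison and at -0.55 ± 0.17 in CD62Llo PSGL1lo against naive cells. Sp100, a nuclear body protein gene, was lower in CD62Llo PSGL1lo cells than in CD62Llo PSGL1hi cells, at -1.06 ± 0.15, on the probe set that stands for it, with -0.14 and 0.04, not called, in the PSGL1hi populations against naive cells.

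Others resembled the Ifit genes or Cxcl10. Ifi204, of the DNA-binding p200 family, was at 0.422, 0.576 and 0.523 in CD62Llo PSGL1lo arrays, 0.954, 1.17 and 1.05 in CD62Llo PSGL1hi arrays, 0.941, 1.09 and 0.793 in CD62Lhi PSGL1hi arrays and 2.73, 1.79 and 1.89 in naive arrays, lowest in CD62Llo PSGL1lo and highest in naive cells. Sp110 followed the same order (-0.70 against CD62Llo PSGL1hi cells and -1.503 against naive cells). Tdrd7 was at 2.26, 1.56 and 1.48 in CD62Llo PSGL1lo arrays, 1.16, 1.16 and 0.783 in CD62Llo PSGL1hi arrays, 1.08, 0.798 and 0.916 in CD62Lhi PSGL1hi arrays and 0.484, 0.457 and 0.424 in naive arrays, highest in CD62Llo PSGL1lo and lowest in naive cells. Ifi202b, another p200 gene and one named in mouse lupus loci, was higher than in naive cells by 4.33 ± 0.37, 3.20 ± 0.37 and 2.39 ± 0.37 in the 3 CD44+ populations, and its probe set may also read near-identical p200 genes. Slfn1, of a family linked to T cell quiescence in mouse, was lower in all 3, at -1.45, -1.54 and -1.84.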

How the data were processed

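RNA of 4 sorted CD4 T cell populations, 3 samples each, was measured on 12 Affymetrix mouse arrays. The deposited value of a probe set is a linear ratio to its own median over the 12 arrays, judged from the values: that median lay within 0.002 of 1 for 99.7% of probe sets. The authors' signals were made with MAS5, per the submitters' processing notes. Version, target scaling and the division by the median are not stated in the sources used here, and brightness and signal over background are unknown.

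Ratios were taken to log2 with no pseudocount and no filter on dim probe sets. The 64 array controls of 45101 probe sets were left out. A mean for each population was fitted to all 12 arrays with limma 3.58.1 (lmFit and eBayes) in R 4.3.3 with the data.table package, version 1.17.8, and 6 contrasts and an F test were taken, two-sided, adjusted by Benjamini-Hochberg over 45037 probe sets. The number of arrays limits the precision: 8 residual degrees of freedom and a median standard error of 0.12 log2 per difference. The fit was tested on simulated data with noise drawn independently for each array. Such data lack the shared deviations of same-numbered arrays described below, so that test does not show how the fit handles them. No 2 arrays held identical values.

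Probe sets were named from GEO's platform annotation, 34945 with 1 symbol, 932 with several and 9160 not listed. All 43 member genes matched RefSeq. A gene's standing probe set was chosen by suffix, then by RefSeq accession, then by the lowest number. Of the members, up to 6 rises and 6 falls per comparison and a set of fixed pathway genes were to be named in detail. Members and lists were chosen with earlier results of these data known.

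Replicate numbers in the titles were checked for pairing. Same-numbered arrays of the CD44+ populations deviated together (correlations 0.138 to 0.451), so these numbers were taken to pair the arrays. The reported calls nonetheless come from the fit without this pairing. For comparisons among these populations, calls that changed with the replicate block are given beside them. With naive arrays the correlations were -0.0817 to 0.157, and no pairing was taken. Alternatives covered normalization, arrays and features in the fit, the prior, the replicate block and leaving out each array. For contrasts among the CD44+ populations the block was fitted without the naive arrays. The effects of the block and of that omission on these counts cannot be told apart.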

Additional observations from a re-analysis of the deposited data

How the results depend on the processing

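Each comparison was repeated with quantile normalization, with each array centred on its median, with only the 2 populations fitted, with 1 probe set per gene, without cross-hybridising probe sets, with a robust prior, with the replicate block and without each array in turn. Of 131 called member values, 87 kept an adjusted p under 0.05 in limma in every setting, 44 lost it in at least 1, and 0 reversed. Among values called in neither setting, 34 of 3176 changed sign.

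For CD62Llo PSGL1lo against CD62Llo PSGL1hi cells, 17 members were called (8.38% of all probe sets), and 11 with only the 2 populations fitted (6.35%). With 1 array left out the counts ran from 9 (without CD62Llo PSGL1hi replicate 1, 6.04% of all probe sets) to 20 (without CD62Llo PSGL1lo replicate 1, 8.19%). Without CD62Llo PSGL1lo replicate 2 the count was 11 (8.95%). For CD62Llo PSGL1lo against CD62Lhi PSGL1hi cells, 17 were called (11.6% of all probe sets), 11 after quantile normalization (9.94%) and 11 with only the 2 populations fitted (7.27%), with 13 to 17 when 1 array was left out. For CD62Llo PSGL1hi against CD62Lhi PSGL1hi cells the count was 0 without any 1 array. It was 1 with the replicate block and no naive arrays (2.42% of all probe sets, against 1.23% in the fit reported). Against naive cells the counts without 1 array were 29 to 40 in CD62Llo PSGL1lo, 23 to 34 in CD62Llo PSGL1hi and 24 to 37 in CD62Lhi PSGL1hi cells. The F test called 30 to 38 members without 1 array, 31 after quantile normalization (20.4% of all probe sets) and 46 with the block (28.8%), against 36 (23.7%) in the fit reported. The causes were not tested.

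With the replicate block and no naive arrays, 19 members were called for CD62Llo PSGL1lo against CD62Llo PSGL1hi cells (10.6% of all probe sets). Against CD62Lhi PSGL1hi cells 18 were called (14.8%). Against naive cells, where the numbers were not taken to pair the arrays, the block gave 42 calls in CD62Llo PSGL1lo cells (23.6% of all probe sets, against 20.1% without it), 34 in CD62Llo PSGL1hi cells (21.1%, against 17.3%) and 37 in CD62Lhi PSGL1hi cells (20.7%, against 17.3%). Gbp2 and Stat2 were then called in CD62Llo PSGL1hi cells (adjusted p = 0.0185 and 0.0409) and in CD62Lhi PSGL1hi cells (adjusted p = 0.0257 and 0.0430). Brightness is unknown, so that members near background could not be told from members that are well measured.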
